A study of Mus musculus with 16 samples.

Results

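Ventricles of 4 male mice with adenine-induced chronic kidney disease (CKD) were compared with ventricles of 4 male controls by bulk RNA sequencing. These 8 libraries, all those labelled male among the 16 of the series, were chosen by their sex and treatment labels. All mice were wildtype C57BL/6, were 8 weeks old when the regimen began and were kept on it for 6 weeks. The CKD group received chow with 0.25% adenine in alternation with standard chow, and the control group received standard chow throughout. The series title names pro-arrhythmic remodelling, so the contrast asks which ventricular transcripts of males differed with CKD. One CKD library, CKD 4, lay apart from the other 7, and the contrast is therefore given with it and without it.

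Mice turn excess dietary adenine into poorly soluble crystals that block and injure the tubules of the kidney, and as filtration is lost uraemic solutes build up. The heart of an animal with kidney disease is exposed to those solutes, to changed blood pressure and volume, and to changes in hormones such as glucocorticoids and angiotensin. A ventricle holds cardiomyocytes, which contract and conduct, beside fibroblasts that lay down matrix, endothelial cells, pericytes and resident immune cells, and a bulk library sums the RNA of all of them.

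The libraries held 10780272 to 13626039 counts, and mitochondrially encoded transcripts took 8.45% to 9.49% of them. Cardiomyocyte markers were high in every library (mean of 8 genes 11.56 to 12.05 log2 CPM; CPM are counts scaled by library size), as the tissue label says. On the first principal component, with 44.04% of the variance, CKD 4 lay at 77.15 and the other 7 libraries between -23.60 and 12.38. CKD 4 had 2291 genes more than 0.5 log2 units outside the range of the other 7, against 78 to 339 genes for any other library. In CKD 4 the mean of 12 fibroblast markers was 4.11 log2 CPM against 5.42 to 6.22 elsewhere, that of 15 endothelial markers 5.66 against 6.594 to 6.999, and that of 13 macrophage markers 3.05 against 4.07 to 4.53. Its cardiomyocyte mean was the highest of the 8. In bulk tissue, fewer cells of a type and less RNA per cell cannot be told apart.

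A second division ran through the controls. The sample titles carry a code number whose meaning the labels do not give: it is 6 in controls 1 and 2 and in CKD 1 and 3, 5 in CKD 2, 3 in control 3 and CKD 4, and 2 in control 4. Controls 3 and 4 lay at -44.63 and -27.22 on the second component (21.31% of the variance), and the other 6 libraries between 7.745 and 17.02. The 2 controls and 2 CKD libraries with code number 6 give a contrast within 1 code. Its values are set beside the full contrast below for part of the lists and genes. The labels do not say what separates replicates, so the tests measure the spread between these samples.

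**Figure D1:**
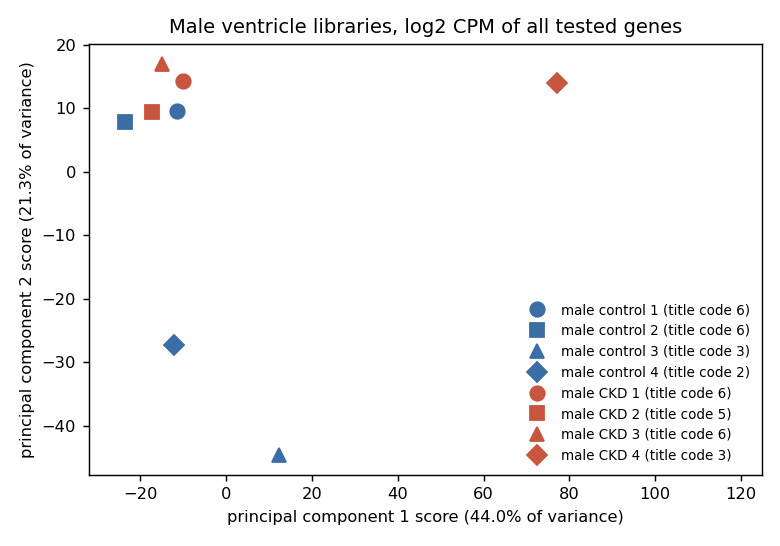
Scores of the 8 male libraries on the first principal component (x axis) and the second (y axis) of log2 CPM, 1 point per library, blue for controls and red for CKD. CKD 4 lies alone at 77.15 on the x axis, and controls 3 and 4 lie apart from the other 6 libraries on the y axis.

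No gene passed edgeR's quasi-likelihood test in males. Of 15866 genes tested, 0 (0.00%) had an adjusted p under 0.05, and the lowest adjusted p was 0.732. An unadjusted p under 0.05 was reached by 333 genes that were higher with CKD (2.10%) and 476 that were lower (3.0%). All 4 CKD libraries lay above all 4 controls for 239 genes (1.51%) and below them for 264 (1.66%). Leaving out control 4 brought the genes at an unadjusted p under 0.05 from 809 to 438. With no filter on low counts, where 31118 genes were tested, edgeR called 23 genes higher and 83 lower. The median SE of a log2 fold change was 0.21, and the biological coefficient of variation was 0.224.

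Without CKD 4 the coefficient of variation was 0.179. Still 0 of 16086 genes (0.00%) passed, with a lowest adjusted p of 0.422. At an unadjusted p under 0.05, 374 genes were higher (2.33%) and 578 lower (3.59%), and the groups did not overlap for 449 higher (2.79%) and 540 lower genes (3.36%). The 952 genes at an unadjusted p under 0.05 became 1536 when control 2 was left out as well and 581 when control 4 was. DESeq2, run on the same counts, called 6 genes with all libraries (0.0378%), 1 higher and 5 lower, and 26 without CKD 4 (0.162%), 12 higher and 14 lower. limma-voom called 0 in both. The genes described below were therefore ranked by p and did not pass edgeR's test. Their adjusted p was 0.879 or above with all libraries, with the exception of Cpxm2.

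Cpxm2, which encodes a carboxypeptidase-like protein that is secreted, had the lowest p of all genes (GRCm38 chr7:132032687-132154739, minus strand). It stood at 28.1, 27.9, 29.6 and 31.2 CPM in controls 1 to 4 and at 17.2, 14.6, 10.4 and 11.5 CPM in CKD 1 to 4. The 4 controls lay close together and every CKD library lay well below them, CKD 4 among the others of its group. The means were 29.2 ± 1.56 and 13.4 ± 3.06 CPM (SD, n = 4 each), a log2 fold change of -1.12 (SE 0.18, edgeR adjusted p = 0.732). It was -1.07 (SE 0.18) without CKD 4 and -1.01 within code number 6, and DESeq2 gave an adjusted p of 0.000259.

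Rbm3, which encodes an RNA-binding protein induced by mild cold, led the genes that were higher with CKD (GRCm38 chrX:8138975-8145880, minus strand). Controls 1 to 4 held 84.5, 79.9, 92.7 and 77.7 CPM and CKD 1 to 4 held 134, 127, 133 and 146 CPM. The groups did not overlap, and CKD 4 had the highest value. The log2 fold change was 0.69 (SE 0.13, edgeR adjusted p = 0.879), 0.63 (SE 0.13) without CKD 4 and 0.70 within code number 6, and DESeq2 gave an adjusted p of 0.00225. Cirbp, the other cold-inducible RNA-binding protein listed, overlapped between the groups, at 85.3, 48.2, 71.7 and 59.9 CPM in controls and 112, 78.5, 60.99 and 120.2 CPM with CKD (log2 fold change 0.49, SE 0.24).

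Rflnb encodes refilin B, a partner of the actin cross-linker filamin. Its level was 48.7, 46.7, 68.5 and 50.6 CPM in controls and 27.5, 38.1, 29.1 and 29.6 CPM with CKD, with no overlap (log2 fold change -0.79, SE 0.17, -0.79 without CKD 4). Celsr3, an atypical cadherin of planar cell polarity, was at 2.66, 2.67, 2.86 and 3.24 CPM in controls and at 1.24, 1.499, 1.56 and 1.62 CPM with CKD (log2 fold change -0.94, SE 0.23). These groups were also apart, at a low level of counts. Oaf (log2 fold change -0.85, SE 0.20), Slc17a7, which encodes a vesicular glutamate transporter (log2 fold change -1.12, SE 0.28), and Slc16a13, a member of the monocarboxylate transporter family (log2 fold change -1.04, SE 0.25), had every CKD library below every control. Without CKD 4 their values were -0.84, -1.01 and -1.15.

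On the higher side, Gnmt, which encodes glycine N-methyltransferase, a consumer of the methyl donor S-adenosylmethionine, stood at 4.03, 3.19, 3.78 and 1.85 CPM in controls and 6.79, 6.83, 5.61 and 6.92 CPM with CKD (log2 fold change 1.02, SE 0.24). Shld1, a subunit of the shieldin complex of DNA repair, stood at 27.3, 30.2, 20.8 and 23.6 CPM in controls and 39.04, 36.7, 40.5 and 43.4 CPM with CKD (log2 fold change 0.65, SE 0.16). In both genes all CKD libraries lay above all controls. Of the other 9 leading higher genes, Gstm2, a glutathione transferase (log2 fold change 0.55, SE 0.16), Perp (log2 fold change 0.47, SE 0.14), Zfp143 (log2 fold change 0.51, SE 0.15), Nrgn (log2 fold change 1.06, SE 0.30) and Clec12b (log2 fold change 0.97, SE 0.29) did not overlap either. Nrgn was higher in CKD 4 (5.03 CPM) than in the other 3 CKD libraries (2.33 to 2.76), and its value without CKD 4 was 0.74.

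Nqo1, a quinone reductase controlled by the antioxidant factor NRF2, was at 83.1, 96.2, 69.1 and 64.7 CPM in controls and 116, 98.6, 106 and 136 CPM with CKD. Control 2 and CKD 2 lay close to each other but the groups did not overlap (log2 fold change 0.55, SE 0.17, 0.43 without CKD 4). Of the 21 NRF2 targets tested, 13 were higher and 8 lower, 3 lay apart between the groups, all of them higher (against 1.51% of all genes), and their median was 0.043 on the log2 scale against -0.003 over all genes. Nt5e, the ectonucleotidase CD73 that makes adenosine from AMP, was at 25.1, 29.5, 20.9 and 21.9 CPM in controls and 43.8, 50.5, 27.9 and 40.1 CPM with CKD, with CKD 3 inside the control range (log2 fold change 0.73, SE 0.20, 0.40 within code number 6).

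**Figure D2:**
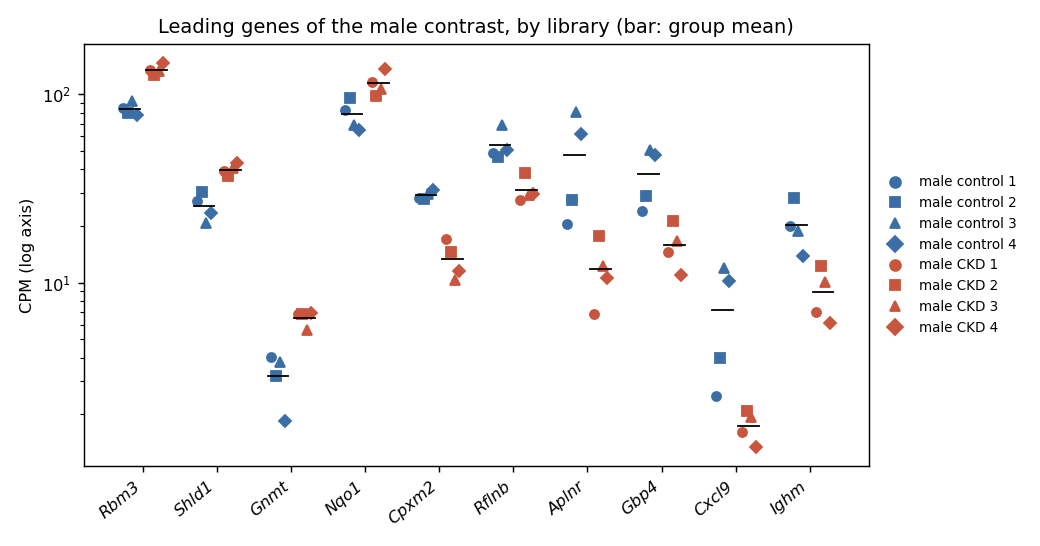
CPM on a log axis (y) of 10 genes with low p or from the gene panel (x) in the 4 control libraries (blue) and the 4 CKD libraries (red), with group means as bars. The groups do not overlap for any of the 10; in Aplnr, Gbp4 and Cxcl9 controls 3 and 4 lie above controls 1 and 2.

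Apelin signalling, in which the peptide apelin (Apln) acts on its receptor (Aplnr) on endothelial and muscle cells, had both its named genes among the lowest p of the lower genes. Aplnr stood at 20.6, 27.4, 80.1 and 61.6 CPM in controls and 6.79, 17.7, 12.3 and 10.6 CPM with CKD. Every CKD library lay below every control, and controls 3 and 4 stood well above controls 1 and 2. The log2 fold change was -2.00 (SE 0.42, edgeR adjusted p = 0.879; DESeq2 adjusted p = 0.00471), -1.98 without CKD 4 and -1.34 within code number 6. Apln was at 9.92, 5.19, 20.6 and 16.2 CPM in controls and 3.21, 5.33, 4.60 and 5.57 CPM with CKD (log2 fold change -1.47, SE 0.37). Here control 2 lay among the CKD libraries and controls 3 and 4 were the highest, and the value within code number 6 was -0.97.

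Genes induced by interferon, the cytokine family of antiviral defence, were mostly lower with CKD: 25 of 27 tested members had a lower mean, 13 at an unadjusted p under 0.05 (against 3.0% of all genes), and 5 did not overlap (against 1.66%). The list's median was -0.48, -0.41 without CKD 4 and -0.28 within code number 6. Gbp4 and Cxcl9, which are not members of this list and had larger differences than any of its 27, were among the leading lower genes by p. Gbp4, a guanylate-binding protein, stood at 24.2, 28.8, 50.6 and 47.5 CPM in controls and 14.6, 21.3, 16.6 and 11.1 CPM with CKD (log2 fold change -1.25, SE 0.27, DESeq2 adjusted p = 0.0399). Cxcl9, a chemokine that draws T cells, stood at 2.52, 4.002, 11.9 and 10.2 CPM in controls and 1.61, 2.08, 1.93 and 1.35 CPM with CKD (log2 fold change -2.02, SE 0.45, DESeq2 adjusted p = 0.0285). Both were apart between groups, and in both the highest values were those of controls 3 and 4. Within code number 6 the differences were -0.76 and -0.88. Ifi205 and Ifi211, also interferon-inducible and outside this list, had higher means with CKD (log2 fold change 0.77 and 0.60). Their values were 1.08 and 0.89 without CKD 4, and 1.01 and 0.89 within code number 6.

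Gbp2 and Gbp3, of the same family as Gbp4, are shown with their upstream sequence because both windows hold the interferon-stimulated response element, the DNA motif read by interferon-activated factors. Gbp2 stood at 23, 26.2, 37.2 and 33.5 CPM in controls and 16.6, 22.98, 20.1 and 8.08 CPM with CKD (log2 fold change -0.82, SE 0.28), and Gbp3 at 14.7, 15.2, 28.8 and 24.6 CPM in controls and 9.49, 14.3, 10.3 and 7.63 CPM with CKD (log2 fold change -0.99, SE 0.26). Neither overlapped between groups. The 250 bases before each start site follow (RefSeq, GRCm38.p6, Gbp2 at chr3:142620413-142620662, plus strand, and Gbp3 at chr3:142559794-142560043, plus strand), with matches to GAAA, 2 bases of any kind and GAAA, on either strand, in capitals.
Gbp2: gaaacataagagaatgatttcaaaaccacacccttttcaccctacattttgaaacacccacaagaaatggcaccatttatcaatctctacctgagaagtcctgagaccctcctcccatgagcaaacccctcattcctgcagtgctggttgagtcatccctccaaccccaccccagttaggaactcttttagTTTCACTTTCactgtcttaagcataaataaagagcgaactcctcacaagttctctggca
Gbp3: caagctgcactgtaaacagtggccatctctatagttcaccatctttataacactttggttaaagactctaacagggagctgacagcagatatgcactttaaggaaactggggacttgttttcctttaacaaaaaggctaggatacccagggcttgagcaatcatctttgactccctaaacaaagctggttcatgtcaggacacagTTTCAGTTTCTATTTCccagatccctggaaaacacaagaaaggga
The Gbp2 match begins 59 bases before the start, and the 2 overlapping Gbp3 matches begin 45 and 39 bases before it. The motif lies in 13 of the 20 interferon-list genes with a RefSeq window, in 0 of 5 MHC class II genes and in 936 of 27025 genes in all (3.46%). Of the leading genes that have a window, 0 of 8 lower and 0 of 10 higher ones held it. Without CKD 4 the counts were 0 of 9 lower and 2 of 9 higher ones. The second of 2 Gbp3 windows holds no match. These windows were chosen after 8 motifs had been scanned over 24 of the named or listed genes, of which 3 held this one.

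Antigen presentation genes mostly lay in the same direction. MHC class II molecules, which display peptides to helper T cells, were lower for 8 of 8 members, 7 of them at an unadjusted p under 0.05 (against 3.0% of all genes), with 4 not overlapping (against 1.66%) and a median of -1.24. H2-Eb1, a class II beta chain, stood at 26.5, 27.6, 59.1 and 43.7 CPM in controls and 16.1, 23.8, 21.3 and 9.07 CPM with CKD (log2 fold change -1.16, SE 0.32). H2-DMb1, which helps load the peptide, stood at 3.09, 2.82, 7.15 and 4.81 CPM in controls and 1.97, 1.998, 2.12 and 1.08 CPM with CKD (log2 fold change -1.30, SE 0.34). In both, controls 3 and 4 were the highest libraries and CKD 4 the lowest. The class II median was -1.05 without CKD 4 and -0.52 within code number 6.

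For MHC class I presentation, 10 of 12 members were lower, with a median of -0.53, -0.42 without CKD 4 and -0.03 within code number 6. At an unadjusted edgeR p under 0.05, 7 were lower and 1 higher, against 3.0% and 2.10% of all genes. The groups did not overlap for 1 member, which was higher (against 1.51% of all genes), and for 0 lower ones (against 1.66%). B2m, the invariant light chain, was at 103, 149, 179 and 174 CPM in controls and 89.98, 128, 108 and 76.6 CPM with CKD, with control 1 inside the CKD range (log2 fold change -0.59, SE 0.21). Macrophage markers, as carriers of class II, had a mean of 4.07 to 4.53 log2 CPM in controls and 4.31 to 4.47 in CKD 1 to 3, so those ranges overlapped, against 3.05 in CKD 4. Of the 13 macrophage markers, 9 were lower and 4 higher, and the median was -0.17, or -0.04 without CKD 4. Of the 13, 0 were at 0 in all libraries. Cx3cr1 alone had an unadjusted edgeR p under 0.05 (log2 fold change -1.25, SE 0.35, -1.08 without CKD 4), and its groups overlapped. The part of macrophage markers in the antigen presentation result was not tested.

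Extracellular matrix genes followed. Of 39 tested, 33 were lower with CKD, 19 of them at an unadjusted p under 0.05 (against 3.0% of all genes), and 4 did not overlap (against 1.66%). The median was -0.65, -0.43 without CKD 4 and -0.16 within code number 6. Sparc, a collagen-binding matrix protein, stood at 236, 185, 415 and 309 CPM in controls and 152, 178, 173 and 119 CPM with CKD (log2 fold change -0.88, SE 0.24). The groups were apart, controls 3 and 4 were the highest, and the value within code number 6 was -0.38. Col1a1, the main chain of type I collagen, overlapped, at 18.1, 34.6, 77.4 and 74.7 CPM in controls and 15.5, 34.6, 26.95 and 8.53 CPM with CKD (log2 fold change -1.26, SE 0.47, -0.32 within code number 6).

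P4ha1, part of the enzyme that hydroxylates prolines of collagen, stood at 37.7, 54.7, 37.3 and 48.6 CPM in controls and 29.3, 37.1, 34.96 and 23.1 CPM with CKD, narrowly without overlap (log2 fold change -0.52, SE 0.19). Ccn2, connective tissue growth factor, went the other way, at 55.4, 63.95, 60.2 and 65.99 CPM in controls and 157, 151, 54.3 and 93.5 CPM with CKD. CKD 1 and 2 were high and CKD 3 lay below every control (log2 fold change 0.90, SE 0.28). All 12 fibroblast markers had a lower mean with CKD (median -0.37), and 10 of 12 did without CKD 4 (median -0.21). The mean level of the 12 ran from 5.61 to 6.22 log2 CPM in controls, from 5.42 to 5.77 in CKD 1 to 3 and was 4.11 in CKD 4, and its part in the matrix result was not tested. Mfap4, a matrix protein and fibroblast marker, stood at 7.98, 5.34, 16.3 and 10.9 CPM in controls and 2.92, 5.58, 2.85 and 3.23 CPM with CKD, with CKD 2 above control 2 (log2 fold change -1.47, SE 0.34).

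Of 15 endothelial markers 14 were lower (median -0.24), but without CKD 4 the counts were 10 lower and 5 higher (median -0.12). Kdr, the main receptor for the vascular growth factor VEGF, stood at 139, 172, 206 and 201 CPM in controls and 98.2, 175, 137 and 62.3 CPM with CKD, with CKD 2 inside the control range (log2 fold change -0.60, SE 0.27). Cldn5, of endothelial tight junctions, overlapped through CKD 2 and control 2. It stood at 18.9, 16.4, 26.4 and 19.96 CPM in controls and 10.7, 17.1, 10.3 and 5.75 CPM with CKD (log2 fold change -0.89, SE 0.28).

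**Figure D3:**
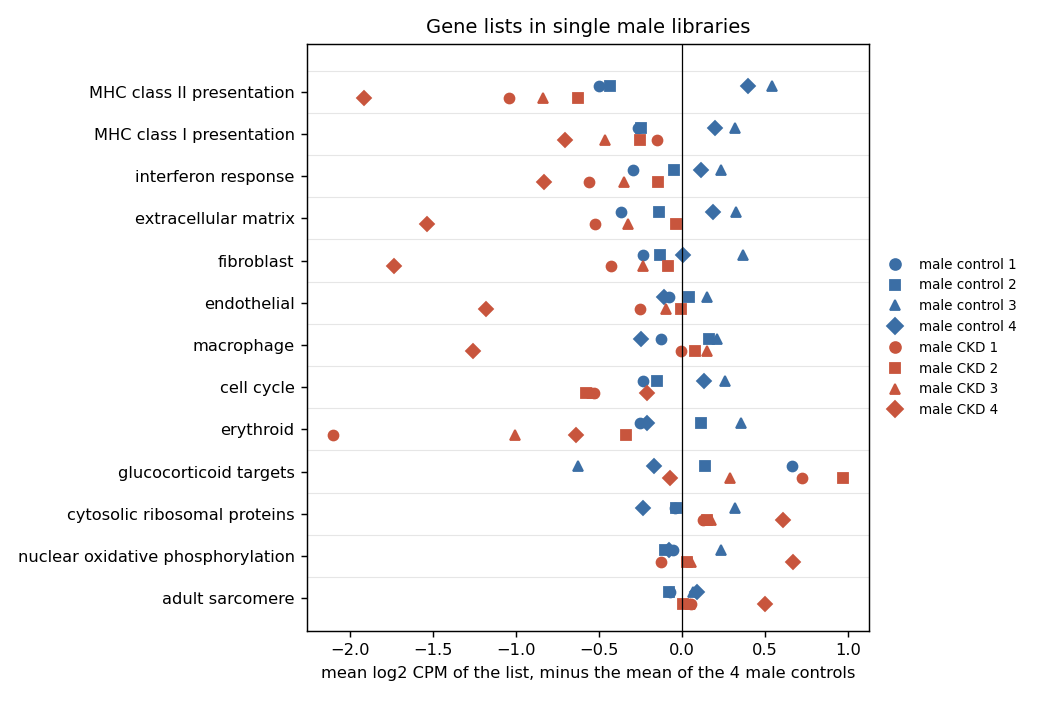
Mean log2 CPM of each gene list (y axis) in every male library, relative to the mean of the 4 controls (x axis), with controls in blue and CKD in red. CKD 4 lies far below the others for matrix, fibroblast, endothelial and macrophage genes, and controls 3 and 4 lie above controls 1 and 2 for antigen presentation, interferon and matrix genes.

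Lymphocyte and erythroid transcripts had lower means with CKD, and neutrophil transcripts had higher ones. Ighm, the heavy chain of immunoglobulin M made by B cells, stood at 19.9, 28.2, 18.8 and 13.95 CPM in controls and 7.01, 12.3, 10.1 and 6.11 CPM with CKD, without overlap (log2 fold change -1.19, SE 0.26, -1.07 without CKD 4, DESeq2 adjusted p = 0.0408). Only 5 of 12 lymphocyte markers had enough counts to be tested, and all 5 were lower. The haemoglobin genes Hba-a1 and Hba-a2, close copies whose counts may be split, showed the same pattern. Hba-a1 stood at 321, 353, 465 and 326 CPM in controls and 95.2, 256, 169 and 219.5 CPM with CKD (log2 fold change -0.99, SE 0.26), with CKD 1 lowest. The 5 erythroid markers tested were all lower, with a median of -0.89, -1.03 without CKD 4 and -1.38 within code number 6. Of 8 neutrophil markers 3 had enough counts to be tested, and all 3 were higher (median 0.46), as were 5 of 5 tested without CKD 4 (median 0.52), but their median within code number 6 was -0.15. None of the 3 lay apart between the groups or had an unadjusted p under 0.05. The amount of blood left in each ventricle was not measured here.

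Cell cycle genes had lower means with CKD, and a lower median without CKD 4. Of 14 tested, 13 were lower (median -0.40) and 2 did not overlap, against 1.66% of all genes; without CKD 4, 14 of 16 were lower (median -0.56) and 8 did not overlap, against 3.36% of all genes. Mki67, the proliferation marker Ki-67, stood at 6.33, 6.15, 11.3 and 10.4 CPM in controls and 2.34, 4.25, 3.31 and 5.12 CPM with CKD (log2 fold change -1.18, SE 0.29). Top2a, the topoisomerase of dividing cells, stood at 2.23, 2.45, 4.96 and 4.62 CPM in controls and 0.949, 0.833, 1.01 and 2.78 CPM with CKD. CKD 4 alone reached the control range of Top2a, and the log2 fold change was -1.35 with it and -1.94 (SE 0.37) without it. For Tacc3, of the mitotic spindle, CKD 4 alone reached the control range too, and the log2 fold change was -0.79 with it and -1.11 (SE 0.25) without it. Controls 3 and 4 were highest for Mki67 and Top2a, and the list's median within code number 6 was -0.14.

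In 11 of the 12 genes that led on the higher side without CKD 4, CKD 4 lay within or below the controls, and the other was Rbm3. Map3k6, a stress-responsive kinase, had the lowest p of that contrast (GRCm38 chr4:133240818-133252929, plus strand). It stood at 6.90, 7.93, 6.90 and 4.62 CPM in controls and 30.3, 14.8, 16.5 and 5.93 CPM with CKD. CKD 1 to 3 were all above the controls and CKD 4 was among them. The log2 fold change was 1.62 (SE 0.26) without CKD 4 (edgeR adjusted p = 0.422, DESeq2 0.0000616) and 1.36 with it.

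Slc10a6, a transporter of sulphated steroids, stood at 5.03, 3.78, 3.11 and 3.33 CPM in controls and 12.8, 7.66, 8.74 and 3.95 CPM with CKD (log2 fold change 1.33 without CKD 4, 1.12 with it). Zbtb16, a transcription factor known as a strong glucocorticoid target, stood at 19.4, 22.6, 7.48 and 18.7 CPM in controls and 128, 30.2, 46.5 and 13.1 CPM with CKD, with CKD 1 far above the rest (log2 fold change 1.99 without CKD 4). Cebpd, a transcription factor of the acute phase, stood at 14.1, 9.12, 7.32 and 6.10 CPM in controls and 27.7, 19.1, 17.6 and 4.49 CPM with CKD (log2 fold change 1.21 without CKD 4, 0.91 with it). In all 3 genes CKD 1 was the highest library, and CKD 4 was inside the control range of Slc10a6 and Zbtb16 and below every control of Cebpd.

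Apod, a lipid-binding apolipoprotein (log2 fold change 1.14 without CKD 4), the interferon-inducible Ifi205 (1.08) and Ifi211 (0.89), Fmo2, a flavin monooxygenase (0.85), Slc3a2, a subunit of amino acid exchangers (0.72), Osmr, the oncostatin M receptor (0.80), and Acer2, a ceramidase (0.69), shared the pattern. Ifi205, for example, stood at 21.6, 29.2, 19.8 and 15.1 CPM in controls and 51.7, 36.1, 50.2 and 7.81 CPM with CKD, so that CKD 1 to 3 were above the controls and CKD 4 below them.

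Glucocorticoid targets as a list were higher for 17 of 20 members both with CKD 4 (median 0.56) and without it (median 0.65). Groups did not overlap for 0 of them with CKD 4, against 1.51% of all genes, and for 4 without it, against 2.79%. Within code number 6 the median was 0.11. Control 1 had a list mean of 5.35 log2 CPM, within the range of CKD 1 to 3 (4.97 to 5.65), and control 3 had 4.05. Arrdc2, an arrestin-domain gene of the list, stood at 18.1, 5.48, 5.47 and 6.56 CPM in controls and 33.7, 16.6, 16.4 and 22.6 CPM with CKD, with control 1 inside the CKD range (log2 fold change 1.32, SE 0.39).

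The upstream windows of Map3k6 and Slc10a6 are printed because both hold a loosened glucocorticoid response element, the motif of the steroid-bound receptor. They cover the 250 bases before the start site (RefSeq, GRCm38.p6, Map3k6 at chr4:133240568-133240817, plus strand, and Slc10a6 at chr5:103629404-103629653, minus strand), with matches to GNACA, 3 bases of any kind and TGTNC, on either strand, in capitals.
Map3k6: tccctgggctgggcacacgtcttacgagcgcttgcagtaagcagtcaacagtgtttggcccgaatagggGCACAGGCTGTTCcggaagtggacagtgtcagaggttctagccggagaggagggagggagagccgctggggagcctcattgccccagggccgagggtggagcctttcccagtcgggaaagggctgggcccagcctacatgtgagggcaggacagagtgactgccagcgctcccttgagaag
Slc10a6: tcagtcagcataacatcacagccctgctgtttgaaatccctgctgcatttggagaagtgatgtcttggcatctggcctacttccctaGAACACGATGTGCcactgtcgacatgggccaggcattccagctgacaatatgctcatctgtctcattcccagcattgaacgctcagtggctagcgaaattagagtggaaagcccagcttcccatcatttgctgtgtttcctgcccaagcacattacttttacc
The matches begin 181 and 163 bases before the start. The motif lies in 119 of 27025 genes (0.44%), in 3 of 17 glucocorticoid targets with a window, Map3k6 among them, and in 2 of 9 leading higher genes without CKD 4 that have a window, which are the pair shown. They were picked for holding it from the scan of 8 motifs over 24 genes, and the full palindrome, AGAACA and TGTTCT 3 bases apart, was in 0 of those 24. A match describes these letters and does not show binding.

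**Figure D4:**
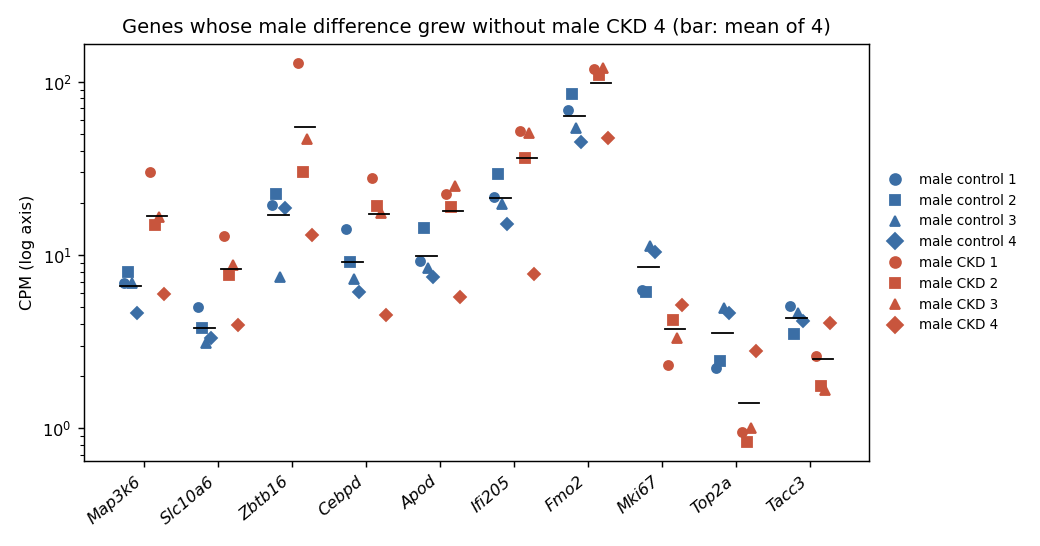
CPM on a log axis (y) of 10 genes that led the contrast without CKD 4 (x), in controls (blue) and CKD libraries (red), with the mean of 4 libraries as bars. CKD 4 lies within or below the control range in the 7 genes on the left and inside it for Top2a and Tacc3.

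Immediate early genes, which respond within minutes to stimuli, had a median of 0.47 over 16 members, but the level came from 1 library. Fos stood at 1.22, 2.15, 1.35 and 1.85 CPM in controls and 2.92, 26.3, 3.50 and 1.80 CPM with CKD, and Nr4a1 at 7.48, 10.8, 7.06 and 10.6 CPM in controls and 12.5, 159, 10.1 and 15.99 CPM with CKD. CKD 2 was far above the other 7 libraries in both. Without CKD 2 the list's median was -0.15.

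Ion channels and calcium handling, which set the cardiac action potential, had list medians close to 0. They were 0.038 for 20 potassium channel genes, -0.025 for 9 sodium channel genes, 0.056 for 18 calcium handling genes and -0.019 for 16 genes of conduction and cell coupling. Of the 9 sodium channel genes, 3 were lower at an unadjusted p under 0.05, against 3.0% of all genes. In the 4 lists 1 gene lay apart between the groups, against 1.51% higher and 1.66% lower over all genes. That gene, Scn4a, a sodium channel alpha subunit known from skeletal muscle, stood at 24.5, 22.4, 17.5 and 44.2 CPM in controls and 14.3, 16.5, 15.6 and 12.6 CPM with CKD (log2 fold change -0.88, SE 0.26). Scn4b, a sodium channel beta subunit, stood at 53.8, 27.9, 31.5 and 76.2 CPM in controls and 28.97, 31.6, 24.4 and 17.6 CPM with CKD, with control 4 and control 1 high (log2 fold change -0.88, SE 0.30).

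Among potassium channels, Kcnn2, of the small-conductance calcium-activated type, stood at 11.6, 10.8, 10.01 and 14.97 CPM in controls and 20.5, 15.6, 14.2 and 16.2 CPM with CKD, overlapping through control 4 and CKD 3 (log2 fold change 0.49, SE 0.18). Kcnd2 (log2 fold change -0.33, SE 0.20), Kcnip2 (log2 fold change 0.057, SE 0.19) and Kcnj2 (log2 fold change -0.032, SE 0.21), of the transient outward and inward rectifier currents, overlapped. So did Cacna1c, the L-type calcium channel (log2 fold change 0.025, SE 0.16), Ryr2, the calcium release channel (log2 fold change -0.12, SE 0.18), Atp2a2, the SERCA pump (log2 fold change 0.10, SE 0.15), its inhibitor Pln (log2 fold change 0.13, SE 0.14) and Gja1, which encodes connexin 43 of gap junctions (log2 fold change 0.24, SE 0.14). Exons on the opposite strand overlap 64.7% of the exon length of Pln, and whether the counting used strand is unknown here. A p above the threshold does not show that these levels were equal: on the log2 scale the 95% confidence interval reached from -0.52 to 0.28 in Ryr2 and from -0.35 to 0.47 in Kcnip2.

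Stretch markers were mixed. Nppb, the natriuretic peptide BNP, stood at 102, 225, 195 and 138 CPM in controls and 271, 368, 159 and 347 CPM with CKD, with CKD 3 inside the control range (log2 fold change 0.79, SE 0.29). Nppa, the atrial peptide, stood at 154, 116, 215 and 101 CPM in controls and 236, 163, 90.2 and 215 CPM with CKD (log2 fold change 0.26, SE 0.30); 61.5% of its exon length overlaps exons on the opposite strand, as does 23.2% of that of Ccn2, 15.003% of that of Cebpd and 13.3% of that of Myh7. Myh7, the slow myosin heavy chain, was high in CKD 1 alone, at 1141, 1558, 1321 and 1603 CPM in controls and 2932, 1673, 1475 and 1522 CPM with CKD (log2 fold change 0.43, SE 0.23). Acta1, skeletal actin, was lower in mean, at 309, 147, 259 and 319.5 CPM in controls and 148, 213, 124 and 164 CPM with CKD (log2 fold change -0.67, SE 0.24).

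Lists of cardiomyocyte energy and contraction genes had other medians without CKD 4. Nuclear genes of oxidative phosphorylation were higher for 34 of 36 (median 0.20) with it and for 13 of 36 (median -0.05) without it. Adult sarcomere genes were higher for 16 of 17 (median 0.17) with it and 9 of 17 (median 0.003) without it. Cytosolic ribosomal proteins were higher for 30 of 30 (median 0.26) and still for 28 of 30 (median 0.11) without it. Tnnt2, cardiac troponin T, did not overlap, at 4478, 4539, 5192 and 4463 CPM in controls and 5531, 5495, 5854 and 7422 CPM with CKD (log2 fold change 0.38, SE 0.14, 0.25 without CKD 4).

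**Figure D5:**
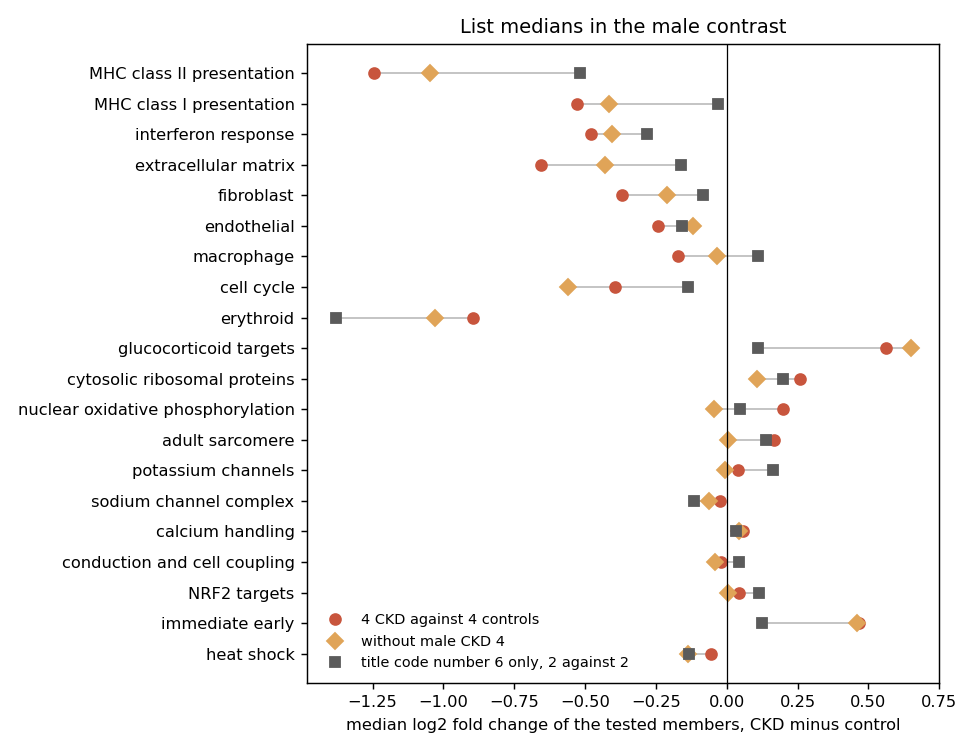
Median log2 fold change (x axis) of the tested members of 20 gene lists (y axis), with all 8 libraries (circles), without CKD 4 (diamonds) and with 2 controls and 2 CKD libraries of code number 6 (squares). Class II, class I and matrix medians move towards 0 within code number 6, and those of oxidative phosphorylation and sarcomere genes lie near 0 without CKD 4.

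Among the remaining lists, heat shock genes were lower for 13 of 19 (median -0.06). Hsph1, a chaperone of the HSP110 type, was apart, at 52.3, 55.4, 40.8 and 72.2 CPM in controls and 32.1, 35.8, 31.6 and 39.4 CPM with CKD (log2 fold change -0.67, SE 0.18). Of 24 sterol and fatty acid synthesis genes 20 were lower (median -0.13), and 17 of 23 fatty acid oxidation genes were (median -0.16). In the circadian list (median 0.075), Nr1d1, a repressor of the clock, stood at 62.3, 75.9, 98.1 and 145 CPM in controls and 59.04, 28.4, 71.4 and 43.02 CPM with CKD (log2 fold change -0.92, SE 0.30), and Per1 at 44.6, 41.6, 18.5 and 52.03 CPM in controls and 64.6, 62.5, 49.3 and 60.98 CPM with CKD (log2 fold change 0.60, SE 0.26). Both overlapped between the groups, and within code number 6 the values were -0.08 for Nr1d1 and 0.41 for Per1. The labels give no hour of tissue collection. Atrial markers varied within groups: Myl4, the atrial light chain, was at 111, 62.3, 329.6 and 48.7 CPM in controls and 84.7, 127, 28.3 and 226 CPM with CKD, with control 3 and CKD 4 highest.

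The 8 female libraries of the series, 4 controls and 4 CKD on the same regimen, share no sample with the male contrast. For the difference of the CKD effect between the sexes, 0 of 16400 (0.00%) passed edgeR's test of the difference, and 276 (1.68%) had an unadjusted p under 0.05, or 527 without CKD 4. This does not show that the effects were equal. Of the genes tested in both, 71.25% had the same sign in males and females, or 65.11% without CKD 4. The 12 leading higher genes had the same sign in females for 11 and the 12 leading lower genes for 12, and without CKD 4 these counts were 10 and 9 of 12. The female log2 fold change was 1.05 for Rbm3, -0.97 for Rflnb, -0.57 for Cpxm2 and -1.41 for Apln. It was 0.10 for Ighm and 0.10 for Hba-a1. Among genes that led on the higher side without CKD 4, it was 1.14 for Slc10a6, 1.04 for Fmo2 and 0.81 for Apod. In the same set it was 0.36 for Map3k6, 0.15 for Zbtb16, -0.1 for Ifi211 and -0.13 for Acer2.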

How the data were processed

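RNA of male mouse ventricles was sequenced as 50 bp paired-end reads, per the labels' protocols. The authors deposited 1 table of raw, unscaled counts per gene. The submitters' processing notes name mm10, STAR 2.6.1d, featureCounts (Subread 1.6.3) and DESeq2 1.30.1, beside FastQC and MultiQC. Settings for strand and multi-mapping reads were not found in the labels, so close copies and overlapping genes are uncertain. Of 33399 genes, 33367 were matched to GENCODE M21 (GRCm38).

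The 4 male CKD libraries were compared with the 4 male controls by edgeR 4.0.16 in R 4.3.3 (filterByExpr with minimum count 10 and total 15, TMM scaling, quasi-likelihood F test, two-sided, Benjamini-Hochberg adjustment over all tested genes, threshold 0.05), and again without CKD 4. The difference between sexes was tested in 1 fit of all 4 groups. Group numbers follow the order of the records. Totals of 10780272 to 13626039 counts leave the spread between samples as the main limit for genes well above the filter. CPM values are scaled by TMM, and means carry the SD. The procedure was tested on simulated data.

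Named genes were a panel of 21, the 12 lowest p in each direction and contrast (mean at least 1 log2 CPM, protein coding, no predicted genes), and from each of 44 lists the members past the threshold or the 2 with the lowest p. Values of many genes that met this rule, the panel gene Rinl among them, are left out of the text, and the counts still hold them. The libraries, lists and genes were chosen with earlier results of these data known. The motifs and the 4 promoters shown were chosen after their matches were seen. Alternatives were DESeq2 1.42.0, limma-voom 3.58.1 with quality weights, RLE scaling, no filter, a stricter filter (1 CPM in 4 libraries), all 4 groups in 1 fit, GC trends removed (lowess span 0.3), the title code number as a factor or held at 6, and each library left out.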

Additional observations from a re-analysis of the deposited data

Results flagged for a closer look

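In each group of 4 libraries, the named genes and list means were checked for 1 library far from the other 3 (a gap to the nearest library, as a share of the group's range, above Dixon's critical value). Of 336 groups checked, 30 had one. Chance gives about 1 in 20 for independent, normally distributed values that were not chosen by their results. Many of these genes were ranked by p in the same libraries, so the 30 cannot be read against that rate.

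In 15 of the 30 the library was CKD 4. It was far above the rest of its group for Gstm2 (181.1 CPM, others 125.3 to 130.5), Ldhb (2380 CPM), Nrgn (5.029 CPM), Rps4x (526.9 CPM), Tnni3 (3956 CPM) and Top2a (2.784 CPM, others 0.8326 to 1.012). It was far below for Fmo2 (47.15 CPM, others 109.2 to 119.1) and H2-DMb1 (1.078 CPM). Of list means it was high for adult sarcomere (11.48 log2 CPM), cytosolic ribosomal proteins (8.714) and cell cycle (2.555), and low for the renin-angiotensin and mineralocorticoid list (3.604), lymphatic markers (2.563, others 4.219 to 4.419) and macrophage markers (3.051).

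CKD 2 was far above its group for Fos (26.31 CPM), Nr4a1 (159.4 CPM), Irs2 (40.13 CPM), Mfap4 (5.579 CPM) and the mean of immediate early genes (5.269 log2 CPM). Control 3 was high for Msln (16.73 CPM), Tnnt2 (5192 CPM) and nuclear oxidative phosphorylation (9.54 log2 CPM), and low for mt-Nd4l (1031 CPM). Control 1 was high for Arrdc2 (18.11 CPM) and low for Flt4 (12 CPM). CKD 3 was high for Clec12b (3.128 CPM) and low for Gnmt (5.612 CPM) and the hypertrophy and stretch list (8.667 log2 CPM). CKD 1 was high for Myh7 (2932 CPM).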

How the results depend on the processing

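edgeR's count of 0 held under RLE scaling, the stricter filter, GC trends removed, 4 groups in 1 fit, both uses of the title code number and every left-out library, and limma-voom gave 0. DESeq2 called 1 higher and 5 lower genes with all libraries, and 12 and 14 without CKD 4. With no filter on low counts (31118 genes) edgeR called 23 higher and 83 lower, and 79 and 130 without CKD 4; the total degrees of freedom of that fit were 177.88 against 11.81 with the filter, and the cause was not tested. No paired analysis was possible because the labels give no replicate numbers. Of 2108 alternative values for 124 named genes, 41 passed the threshold (35 with no filter, 6 with DESeq2). In 26 values the sign changed; only the 7 in which the value exceeded its SE in either fit are counted as reversals, a limit set after the values were seen, and the other 19 lay within it. Within code number 6 the reversals were Cacna1g (0.27), Cspg4 (0.051), Flt4 (0.16), Mbp (0.15) and Mylpf (-0.017). Leaving out 1 library reversed Myl4 (range -0.80 to 0.75, the highest without control 3) and Sln (-0.70 to 0.74, the highest without control 3). Of the list medians, 722 stayed within the spread between samples and 26 moved beyond it, 6 of them within code number 6. The 4 libraries a group leave a median SE of 0.21, and genes near the filter are limited by counts.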
